A study of Apis mellifera with 12 samples.

Results

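Long-span circular RNAs of the honey bee (Apis mellifera) queen ovary are described here, meaning circRNAs whose back-spliced ends lie more than 10000 nt apart on the genome. A circRNA was taken when its read count was above 0 in at least 2 of 3 libraries in each of the 4 groups of queens, and circRNAs inside a pair of dense stretches (LG2 plus strand from 4622669 to 4807227 and LG3 plus strand from 1090193 to 1190378) were left out. This gave 364 of the 20244 circRNAs in the table, or 1.80%. The groups were released queens (caged for 7 days, let out, and taken on day 8 once egg laying had resumed), caged queens (held for 7 days in a cage inside their own colony, so that laying stopped), laying queens and virgin queens, with 3 ovary samples each. The labels name no allele or strain and give no age in days, and whether each sample came from its own queen is not stated, so p-values measure the spread between these samples only. Every sample was ovary RNA without its ribosomal fraction, treated with RNase R, an enzyme that digests linear RNA from its ends and leaves circles.

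A circRNA forms by back-splicing, in which the donor at the end of a downstream exon joins the acceptor at the start of an upstream exon and closes the RNA into a loop. The distance between its ends counts introns that may be spliced out, so it is a length on the genome and not the length of the RNA. Having no free ends, circRNAs resist exonucleases and tend to be long-lived, and one stretch of genome can give several of them through different pairs of splice sites. The ovary of a queen holds egg-producing ovarioles with germ cells, nurse cells and follicle cells, which develop further once the queen lays. No gene is given for any circRNA, so members are identified by their number and by their position in the build Amel_4.5, and a check of the tissue against marker genes was not run.

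The spans ran from 10010 to 92663 nt, with a median of 17914.5 nt and quartiles of 12867 and 26810.8 nt. There were 155 circRNAs over 20000 nt, 73 over 30000 nt and 26 over 50000 nt. Of the 364, 160 lay on the plus and 204 on the minus strand, 358 lay on the 16 linkage groups and 6 on unplaced scaffolds. LG1 held 78, LG2 held 35, LG8 held 26 and LG3 held 24. The table listed 2384 circRNAs over 10000 nt in all, of which 974 were listed in 1 library only, and the 364 held 64.2% of the reads of that wider set. The values that chose the members were counts above 0 and the span. Just inside the span limit lay ame_circ_0017180 (10010 nt, mean 171 CPM, the count scaled to a common library total of circRNA reads), ame_circ_0009071 (10014 nt, 193 CPM) and ame_circ_0008891 (10186 nt, 92.0 CPM). Just outside it, with the same breadth of listing, lay ame_circ_0004977 (9987 nt, 409 CPM), ame_circ_0001781 (9929 nt, 34.0 CPM) and ame_circ_0016773 (9898 nt, 32.6 CPM).

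Long circRNAs often shared their splice sites. The 364 used 302 distinct starts and 285 distinct ends, and 197 of them had a start or an end in common with another of the 364. One end was used by as many as 6 of them and one start by as many as 4. Set against the whole table, 356 shared a start or an end with some other circRNA and 338 had at least 1 shorter circRNA nested inside them. Joined by overlap on one strand, they fell into 217 stretches, of which 146 held a single long circRNA and 8 held 5 or more. Reads of members that share a stretch are therefore not independent of each other, and how reads were divided between overlapping circRNAs rests on the authors' calling. The long circRNA was the main product of its own start, with over 50% of the CPM of all circRNAs that begin there, in 197 cases. It was the main product of its end in 181 cases and of both in 100.

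Mean levels over the 12 libraries ran from 15.7 to 9473 CPM with a median of 97.6 CPM. Circles of shorter span chosen by the same listing rule had medians of 94.0 CPM (over 2000 to 10000 nt, 726 circRNAs), 109 CPM (over 500 to 2000 nt, 728 circRNAs) and 102 CPM (up to 500 nt, 452 circRNAs). Listing in all 12 libraries held for 197 long circRNAs (54.1%), against 62.8%, 64.6% and 66.2% in the shorter classes in that order. The level was uneven within the set: the 10 most abundant held 45.2% of its summed CPM. The libraries held between 66487 and 206697 circRNA reads. Virgin replicate 2 was the shallowest, and 290 of the 364 were listed in it, against 315 to 360 in each of the others. No library held a count of 1, so an entry of 0 sets no upper limit on a level. Of the 275 entries at 0, 68 fell in released, 40 in caged, 72 in laying and 95 in virgin libraries.

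Together the 364 long circRNAs took up more of the circRNA reads in caged ovaries than in any other group. Their share was 10.6%, 12.7% and 13.2% in the released libraries, 14.8%, 13.5% and 14.9% in the caged ones, 12.6%, 11.7% and 11.4% in the laying ones and 11.2%, 10.9% and 11.4% in the virgin ones. The group means were 12.1 ± 1.39% in released, 14.4 ± 0.798% in caged, 11.9 ± 0.630% in laying and 11.2 ± 0.294% in virgin ovaries (SD, n = 3 each). All 3 caged values lay above all other 9 values, and the ranges of released and laying ovaries overlapped each other and that of virgin ovaries. The 6 long circRNAs of one LG8 stretch, described further on, held 2.67 ± 0.498% of reads in released, 3.95 ± 1.05% in caged, 2.56 ± 0.397% in laying and 1.03 ± 0.0291% in virgin ovaries. Without those 6 the shares were 9.48 ± 1.15% in released, 10.4 ± 1.16% in caged, 9.31 ± 0.320% in laying and 10.1 ± 0.284% in virgin ovaries, and the caged values overlapped those of the released and virgin groups, while the laying values lay below all caged and virgin ones and within the released range. The remaining 358 include ame_circ_0017314, described further on, which averaged 17990 ± 1934 CPM in virgin ovaries. It averaged 2063 ± 580, 2446 ± 468 and 2086 ± 474 CPM in released, caged and laying ovaries. It therefore adds more to the virgin share of the 358 than to the share of any other group. The order of the groups without it was not computed, so the place of virgin ovaries in these shares includes its fall. These shares are a description of the chosen set and were not tested. In whole ovaries, a change in the number of cells of a type cannot be told apart from a change in RNA per cell.

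**Figure D1:**
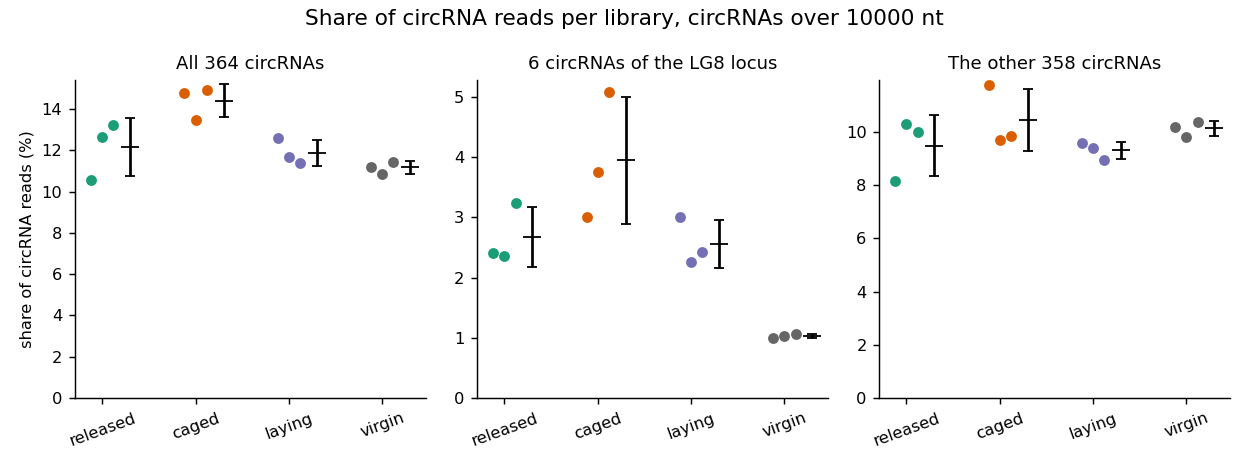
Share of circRNA reads (percent, y axis from 0) held by long circRNAs in each library of the released, caged, laying and virgin groups (x axis), for all 364, for the 6 of the LG8 stretch and for the other 358. Among those 358 is ame_circ_0017314, whose CPM was highest in virgin ovaries. Points are libraries, and the bars give the group mean and SD (n = 3); the LG8 share was 1.03% in virgin ovaries and above 2% in every library of the other groups, while in the panel of the other 358 the laying points lie below the caged and virgin ones and among the released ones, and the released, caged and virgin points overlap.

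Ovaries of released, caged and laying queens were each set against virgin ovaries, to ask how circRNAs differ with ovary activation. Virgin queens differ from the others in mating and may differ in age and in the cell makeup of the ovary, and these cannot be told apart from laying state. A low-count filter kept 351 of the 364 for testing, and the 13 left out averaged 15.7 to 27.4 CPM. In laying ovaries 50 of the 351 were higher and 24 lower than in virgin ovaries (edgeR quasi-likelihood test, adjusted p under 0.05), or 74 in all, while 22.7% of all 3215 circRNAs tested were called. In caged ovaries 63 were higher and 22 lower, 85 in all, against a background of 21.4%. In released ovaries 48 were higher and 18 lower, 66 in all, against a background of 19.3%. The 3 comparisons share the virgin libraries, so their calls are not independent of each other. Called rises had a median log2 fold change of 1.73 in released, 1.83 in caged and 1.82 in laying ovaries, and called falls had medians of -2.14, -1.91 and -1.72. Without caged replicate 1 the caged count was 56. Scaled by library totals, the higher and lower calls were 38 and 26 in released, 47 and 32 in caged and 42 and 37 in laying ovaries, and the median change of all circRNAs tested moved by -0.17, -0.23 and -0.20 on the log2 scale.

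The share of all 351 called was close to the background in each comparison, and the split by direction differed from it. Higher calls made up 14.2% of long circRNAs in laying vs virgin ovaries, against 12.5% of all tested, and lower calls 6.84%, against 10.3%. The share over all tested was 13.4% higher and 7.96% lower in caged vs virgin ovaries and 11.4% higher and 7.90% lower in released vs virgin ovaries. Among circRNAs chosen by the same listing rule, 7.92% were higher and 17.4% lower in laying vs virgin ovaries at up to 500 nt. The shares were 13.2% and 12.3% at over 500 to 2000 nt, and 12.4% and 8.71% at over 2000 to 10000 nt. In lower calls the class next to the long ones lay nearest to them, and in higher calls that of over 500 to 2000 nt did. In caged vs virgin ovaries 17.9% of long circRNAs were higher and 6.27% lower, against 13.4% and 8.43% at over 2000 to 10000 nt. The shares there were 15.1% and 8.97% at over 500 to 2000 nt and 7.47% and 16.7% at up to 500 nt. In released vs virgin ovaries the long ones were at 13.7% higher and 5.13% lower, and those of over 2000 to 10000 nt at 12.7% and 8.43%. Those of over 500 to 2000 nt were at 11.8% and 8.69%, and the shortest at 6.79% and 14.7%. The rule bars circRNAs absent from a group and many long circRNAs share a stretch, so these shares are given without a test.

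Calls were more frequent among abundant long circRNAs, where counting error is smaller. In laying vs virgin ovaries none of 85 tested members at up to 50 CPM was called, 8.14% of 86 between 50 and 100 CPM, 26.7% of 86 between 100 and 200 CPM, 42.3% of 52 between 200 and 500 CPM and 52.4% of 42 above 500 CPM. For widely listed circRNAs of 10000 nt or less the same classes gave 0.658% of 456, 14.2% of 424, 28% of 375, 42.3% of 305 and 50% of 284, which in the 3 highest classes lay close to the share of the long ones. The split by direction was further apart in the top class than below it. Between 100 and 200 CPM, 17.4% of the long ones were higher and 9.30% lower in laying than in virgin ovaries, against 10.9% and 17.1% of the shorter ones. Between 200 and 500 CPM, 25% of the long ones were higher and 17.3% lower, against 22.6% and 19.7% of the shorter ones. Above 500 CPM, 42.9% of the long ones were higher and 9.52% lower in laying than in virgin ovaries. Of the 284 shorter ones, 28.5% were higher and 21.5% lower. In the same level class, caged vs virgin ovaries gave 59.5% higher and 7.14% lower for long circRNAs, against 31.3% and 20.1% for the others. For released vs virgin ovaries it was 47.6% higher and 4.76% lower, against 31.7% and 18.7%. Members of this class often share a stretch, and all 6 long circRNAs of the LG8 stretch described further on are among them. Their calls are therefore not independent, and these splits were not tested. By span, the share called in laying vs virgin ovaries was 15.9% of 132 up to 15000 nt, 18.8% of 64 up to 20000 nt, 23.2% of 82 up to 30000 nt and 30.1% of 73 above that, whose median levels were 68.8, 73.8, 118 and 157 CPM.

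**Figure D2:**
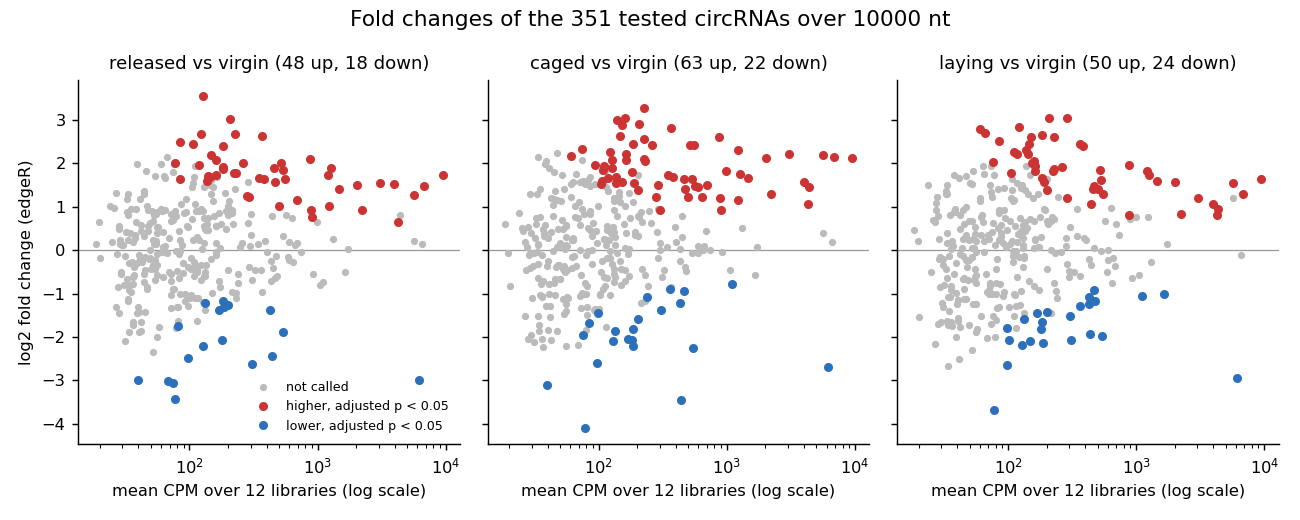
Log2 fold change against virgin ovaries (y axis, edgeR) plotted over mean CPM across 12 libraries (x axis, log scale) for the 351 long circRNAs tested, in released, caged and laying ovaries. Each point is a circRNA, coloured red where higher and blue where lower at adjusted p under 0.05; 48, 63 and 50 were higher and 18, 22 and 24 lower, and most points above 500 CPM that were called lie above 0.

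Members that shared a splice site and were both called moved the same way. Of 185 pairs of long circRNAs with one end in common, both were called in 19 pairs in released vs virgin ovaries, in 33 pairs in caged vs virgin and in 25 pairs in laying vs virgin ovaries, and every such pair had the same direction. In 53, 62 and 59 of the pairs in that order, a single circRNA of the pair was called. Among long circRNAs, no stretch held both a higher and a lower call in any of these comparisons, and 12 stretches held more than 1 call in laying vs virgin ovaries. Shorter circRNAs were not counted here: ame_circ_0019200 (8106 nt), described further on, was called lower in laying ovaries in a stretch with higher calls. Higher calls outnumbered lower ones in each comparison, and several pairs could come from one stretch, so the agreement in direction was not tested. The longer of a pair was the more abundant in 92 of the 185.

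The long circRNAs ranking first and second by mean level came from one LG8 stretch on the minus strand, from 8546045 to 8600528, and of its 6 long circRNAs, 5 were called higher in released, 6 in caged and 5 in laying ovaries than in virgin ovaries. Their ends fell on a grid of 3 starts (8546045, 8549470 and 8553987) and 3 ends (8554151, 8568048 and 8600528). Of the pairings, 8 were listed, and the one not listed would join 8553987 with 8554151, which lie 164 nt apart. On the minus strand the higher coordinate is the upstream side of the transcript. The 6 pairings that reach the end at 8568048 or at 8600528 span 14061 to 54483 nt.

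The top member, ame_circ_0019210 (8553987 to 8568048, 14061 nt), had 9822, 9599 and 13213 CPM in released, 10213, 12478 and 17879 CPM in caged, 11372, 8912 and 9438 CPM in laying and 3312, 3625 and 3811 CPM in virgin ovaries. Every library of the first 3 groups stood above every virgin library. Against virgin ovaries its log2 fold change was 1.74 in released, 2.12 in caged and 1.63 in laying ovaries (SE 0.24 each, adjusted p = 3.98e-05, 3.16e-06 and 5.08e-05). A fold change comes from the fit with its own scaling between libraries, so it need not equal the ratio of CPM means.

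The second most abundant, ame_circ_0019211 (46541 nt), starts at the same site and reaches 8600528. It averaged 7165 ± 2099 CPM in released, 10977 ± 2321 CPM in caged, 6189 ± 1400 CPM in laying and 2868 ± 461 CPM in virgin ovaries (SD, n = 3 each). Its log2 fold change against virgin was 1.47, 2.15 and 1.28 in released, caged and laying ovaries. The pair that starts at 8549470 moved in parallel: ame_circ_0019206 (51058 nt) averaged 5146 ± 677, 9202 ± 2576, 6038 ± 1257 and 2287 ± 484 CPM in released, caged, laying and virgin ovaries. Its partner ame_circ_0019205 (18578 nt) averaged 2087 ± 555, 3028 ± 1087, 2130 ± 137 and 818 ± 196 CPM in the same groups. Both were called in all 3 comparisons with virgin ovaries, with log2 fold changes from 1.28 to 2.18.

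The pair that starts at 8546045 was less abundant. Ame_circ_0019201 (22003 nt) had 357, 726 and 685 CPM in released, 789, 904 and 1237 CPM in caged, 427, 402 and 550 CPM in laying and 268, 120 and 193 CPM in virgin ovaries, and was called higher in all 3. Ame_circ_0019202 (54483 nt) had 423, 1098 and 865 CPM in released, 1369, 1679 and 2241 CPM in caged, 937, 943 and 685 CPM in laying and 645, 451 and 562 CPM in virgin ovaries. It was called in caged vs virgin ovaries (log2 1.83, SE 0.33, adjusted p = 0.000413) and not in laying (0.76, adjusted p = 0.09995) or released vs virgin ovaries (0.64, adjusted p = 0.179).

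The 2 shorter circRNAs on these ends were not called higher in laying ovaries. Ame_circ_0019200 (8106 nt), with the same start as ame_circ_0019202, averaged 314 ± 8.81 CPM in laying and 653 ± 147 CPM in virgin ovaries and was called lower (log2 -0.89, SE 0.29, adjusted p = 0.0301). Ame_circ_0019203 (4681 nt) averaged 6036 ± 567 CPM in laying and 4883 ± 442 CPM in virgin ovaries (log2 0.47, adjusted p = 0.144), and was called higher in caged ovaries at 7335 ± 2423 CPM (0.80, adjusted p = 0.0172). From the start at 8553987 the product reaching the far end was at 0.718 of the level of the one reaching the nearer end, while from 8549470 it was at 2.81 and from 8546045 at 1.79 (ratios of mean CPM over 12 libraries). The ratio from 8546045 was 1.32 ± 0.171 in released, 1.80 ± 0.0611 in caged, 1.93 ± 0.595 in laying and 3.02 ± 0.678 in virgin ovaries (mean of the library ratios, SD, n = 3 each). From 8549470 it was 2.58 ± 0.679, 3.09 ± 0.278, 2.84 ± 0.630 and 3.00 ± 1.27 in those groups, so in virgin ovaries the values from these starts lay near each other. These ratios were not tested.

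**Figure D3:**
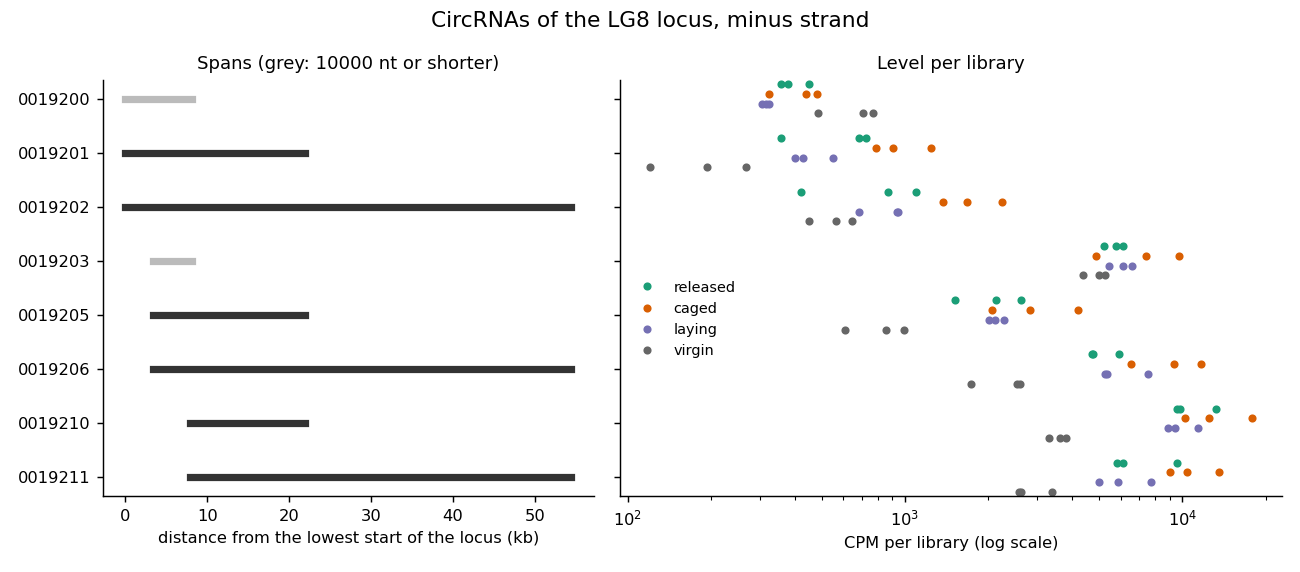
The 8 circRNAs on the LG8 minus-strand grid: left, their spans in kb from the lowest start, with the 2 of 10000 nt or less in grey; right, CPM in each of the 12 libraries (log scale), in rows for released, caged, laying and virgin ovaries. Virgin points lie lowest for the long circRNAs, except ame_circ_0019202, where 1 released library (423 CPM) lies below them, and highest for the short ame_circ_0019200.

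A second grid, on the LG2 minus strand from 10795104 to 10831810, held 14 long circRNAs on 6 starts and 4 ends, the most of any stretch. Of these 14, 3 were called higher than in virgin ovaries in each of the 3 comparisons, and all 3 end at 10831810. The longest, ame_circ_0010731 (36706 nt, the whole stretch), had 620, 525 and 703 CPM in released, 881, 681 and 766 CPM in caged, 675, 621 and 292 CPM in laying and 179, 105 and 193 CPM in virgin ovaries. All libraries of the first 3 groups exceeded those of virgin ovaries, and the log2 fold change was 2.00, 2.41 and 1.84 in released, caged and laying ovaries (SE 0.35 each, adjusted p = 0.000372, 4.71e-05 and 0.000675). Ame_circ_0010756 (22333 nt) averaged 4207 ± 236 CPM in released, 5288 ± 928 CPM in caged, 4614 ± 758 CPM in laying and 2935 ± 391 CPM in virgin ovaries, with log2 fold changes of 0.66, 1.06 and 0.81. Its call in released ovaries was lost in 11 of 19 other settings (adjusted p from 0.0214 to 0.172) and that in laying ovaries in 3, among them scaling by library totals and leaving out laying replicate 1 or virgin replicate 3. Ame_circ_0010751 (28157 nt) had log2 fold changes of 0.92, 1.20 and 0.82.

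The most abundant of this grid did not follow them. Ame_circ_0010758 (11280 nt), which ends at the same site, had 7162, 6822 and 6683 CPM in released, 7010, 7149 and 6139 CPM in caged, 5690, 5433 and 5926 CPM in laying and 6072, 7776 and 6867 CPM in virgin ovaries. Its log2 fold change against virgin was 0.14, 0.19 and -0.11, with adjusted p between 0.534 and 0.731. The laying libraries lay below all virgin ones, while the other groups overlapped with virgin ovaries, and the 95% interval for laying ovaries ran from -0.51 to 0.29. None of the 4 members that end at 10820680 was called against virgin ovaries, among them ame_circ_0010753 (11203 nt, log2 -0.17 in laying ovaries, SE 0.28). The remaining pair ending at 10831810, ame_circ_0010737 (34925 nt) and ame_circ_0010743 (33842 nt), at 60.8 and 115 CPM over the 12 libraries, was not called either, nor was ame_circ_0010755 (20460 nt, 69.8 CPM), which ends at 10829937.

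**Figure D4:**
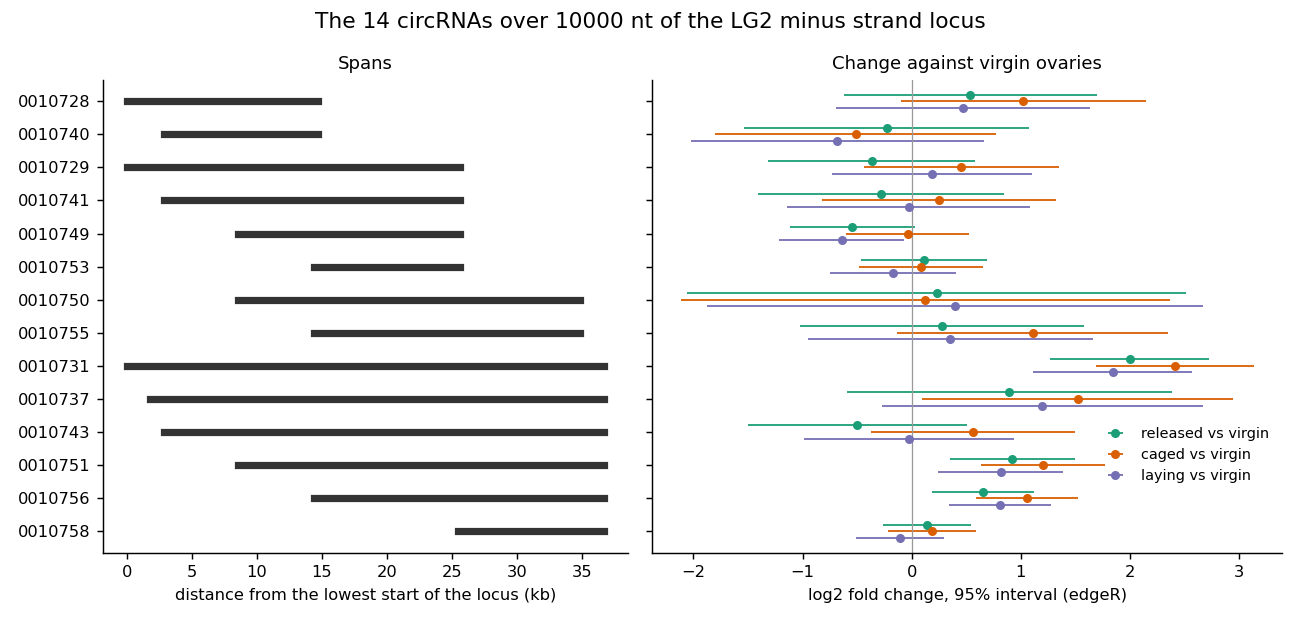
The 14 long circRNAs of the LG2 minus-strand grid: left, spans in kb from the lowest start, grouped by their end; right, log2 fold change with its 95% interval in released, caged and laying ovaries against virgin ovaries. The intervals of ame_circ_0010731, ame_circ_0010751 and ame_circ_0010756 lie above 0 in all 3 comparisons, while ame_circ_0010758 has narrow intervals that span 0.

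Elsewhere too, several members on a shared end were called higher, though not all of them. On the LG3 minus strand, 4 long circRNAs end at 8960255. Ame_circ_0013167 (16328 nt) had 5010, 5492 and 5017 CPM in released, 4959, 5452 and 4920 CPM in caged, 3965, 3893 and 3064 CPM in laying and 1663, 2422 and 1914 CPM in virgin ovaries. The groups did not overlap with virgin ovaries, and the log2 fold change was 1.53, 1.58 and 1.05 (SE 0.21 each, adjusted p = 5.44e-05, 2.56e-05 and 0.00124). The longest, ame_circ_0013154 (40294 nt), had a larger fitted change at a lower level: 414, 250 and 180 CPM in released, 232, 276 and 221 CPM in caged, 270, 374 and 168 CPM in laying and 24.8, 0 and 75.6 CPM in virgin ovaries (log2 3.02, 2.89 and 3.04, SE 0.57, 0.56 and 0.57). Ame_circ_0013160 (38572 nt) was called in all 3 comparisons as well, and ame_circ_0013169 (15191 nt) in none.

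On LG1, minus strand, 4 long circRNAs end at 28862777, and ame_circ_0010013 (15224 nt) led them with 2171, 5230 and 5044 CPM in released, 5080, 6450 and 7189 CPM in caged, 3980, 5422 and 4175 CPM in laying and 2964, 2286 and 2519 CPM in virgin ovaries. It was called in caged (log2 1.45, adjusted p = 0.00151) and laying ovaries (0.95, adjusted p = 0.0256) and not in released ones (0.81, adjusted p = 0.0635), where replicate 1 lay below all virgin libraries. The call in laying ovaries was lost with scaling by library totals and without laying replicate 2, virgin replicate 2 or virgin replicate 3 (adjusted p up to 0.123). Its partner ame_circ_0010017 (14560 nt) was called in caged ovaries (log2 1.22, adjusted p = 0.0256) and not in the other groups, and ame_circ_0010010 (53356 nt) and ame_circ_0010019 (11276 nt) were not called. On LG10, minus strand, ame_circ_0001506 (6229730 to 6246217, 16487 nt) had 2406, 3246 and 4341 CPM in released, 5099, 5511 and 4454 CPM in caged, 2744, 3013 and 1942 CPM in laying and 1018, 1429 and 1368 CPM in virgin ovaries. Its log2 fold change was 1.55, 2.21 and 1.20 (adjusted p = 0.000268, 5.36e-06 and 0.00203), and ame_circ_0001498 (24208 nt), with the same end, was called in caged and laying ovaries. A further LG10 stretch, 11660370 to 11718944 on the minus strand, was picked out after its values were seen: 4 of its 5 long circRNAs were called higher in caged and 3 in released and in laying ovaries, led by ame_circ_0000833 (39474 nt) at 1659 ± 231 CPM in released, 1456 ± 274 CPM in caged, 1469 ± 479 CPM in laying and 484 ± 58.3 CPM in virgin ovaries.

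Rises were also seen outside these stretches. Ame_circ_0018564 (LG8, plus strand, 3082363 to 3102764, 20401 nt) had 263, 238 and 279 CPM in released, 416, 358 and 346 CPM in caged, 247, 287 and 180 CPM in laying and 69.5, 0 and 33.6 CPM in virgin ovaries. Its log2 fold change was 2.66, 3.26 and 2.59 (adjusted p = 0.000761, 6.77e-05 and 0.000806), the largest called rise in caged ovaries. Ame_circ_0012736 (LG3, plus strand, 33961 to 47352, 13391 nt) was even between the 3 other groups, at 218 ± 6.31 CPM in released, 214 ± 45.2 CPM in caged and 256 ± 7.80 CPM in laying ovaries, against 45.0 ± 17.9 CPM in virgin ovaries. Ame_circ_0019939 (LG9, plus strand, 6702779 to 6738755, 35976 nt) averaged 725 ± 31.6, 595 ± 140, 595 ± 156 and 224 ± 54.3 CPM in released, caged, laying and virgin ovaries, with log2 fold changes of 1.85, 1.64 and 1.61.

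For some members the group means of released, caged and laying ovaries lay apart, though none of these was called between those groups in the main edgeR fit. DESeq2 called the first of them, ame_circ_0010792, in released vs laying ovaries (adjusted p = 0.0412). Ame_circ_0010792 (LG2, plus strand, 11218336 to 11229860, 11524 nt) had 310, 256 and 360 CPM in released, 106, 88.0 and 119 CPM in caged, 105, 40.2 and 78.6 CPM in laying and 29.8, 0 and 42.0 CPM in virgin ovaries. The released libraries stood above all others, the log2 fold change against virgin was 3.54 in released (adjusted p = 0.000178), 2.06 in caged and 1.51 in laying ovaries, and the last was not called (adjusted p = 0.0808). Ame_circ_0006850 (LG15, minus strand, 9028699 to 9040556, 11857 nt) was highest in laying ovaries, at 322, 242 and 348 CPM, with 132, 97.6 and 99.1 CPM in released, 164, 112 and 148 CPM in caged and 64.5, 60.2 and 33.6 CPM in virgin ovaries. Ame_circ_0020031 (LG9, plus strand, 7228934 to 7254551, 25617 nt) averaged 297 ± 75.8 CPM in released and 259 ± 199 CPM in caged ovaries, where it was called higher than in virgin ovaries, and 93.1 ± 26.3 CPM in laying ovaries, against 77.1 ± 38.0 CPM in virgin ovaries. At lower levels, ame_circ_0010031 (LG1, minus strand, 28909334 to 28927223, 17889 nt) was called in all 3 groups, with 106 ± 11.1, 253 ± 88.9, 158 ± 44.7 and 37.3 ± 10.9 CPM in released, caged, laying and virgin ovaries. Ame_circ_0016538 (12950 nt) was also called in all 3, with log2 fold changes of 2.07, 3.05 and 2.05, and 1 of its virgin libraries was at 0. Under 100 CPM, ame_circ_0003705 (19818 nt), ame_circ_0006827 (11904 nt) and ame_circ_0005614 (13894 nt) were called higher in laying ovaries, by 2.78, 2.69 and 2.52 on the log2 scale. Without virgin replicate 1 the first and second of these calls were lost (adjusted p = 0.0515 and 0.0563). The laying call of ame_circ_0005614 was not followed in this way. Its call in released ovaries was lost in 3 of 19 other settings, among them leaving out virgin replicate 1 (adjusted p up to 0.0836). Among the longest members, ame_circ_0011643 (LG2, minus strand, 3616675 to 3706044, 89369 nt) averaged 831 ± 369, 1013 ± 461, 553 ± 140 and 392 ± 131 CPM in released, caged, laying and virgin ovaries and was called in caged (log2 1.51) and released ovaries (1.16). The fifth longest, ame_circ_0009526 (LG1, plus strand, 79947 nt), was at 120 ± 60.1, 87.5 ± 79.4, 78.5 ± 13.7 and 206 ± 21.9 CPM in those groups and was not called.

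The largest fall in reads belonged to ame_circ_0017314 (LG7, plus strand, 1604032 to 1622820, 18788 nt), the most abundant long circRNA of virgin ovaries. It had 1588, 2709 and 1891 CPM in released, 2637, 2788 and 1912 CPM in caged and 2076, 2564 and 1616 CPM in laying ovaries, against 18668, 15808 and 19493 CPM in virgin ovaries. No library of the other groups came near the virgin ones, and the log2 fold change was -2.99, -2.68 and -2.94 (SE 0.28 each, adjusted p = 6.05e-07, 1.43e-06 and 4.00e-07), or 7.92-, 6.41- and 7.69-fold lower. It carried 94.5% of the CPM of its start and 95.2% of that of its end. Of its neighbours, picked out after their values were seen, ame_circ_0017313 (187 nt, same start) was lower as well, at 129 ± 39.6 CPM in released, 77.3 ± 36.2 CPM in caged and 136 ± 38.1 CPM in laying ovaries, against 670 ± 86.3 CPM in virgin ovaries (log2 -2.25, -2.91 and -2.13). Ame_circ_0017318 (525 nt, same end) averaged 303 ± 47.2 CPM in laying, against 278 ± 103 CPM in virgin ovaries, and was not called in any of the 3 groups.

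Further falls were seen in other long circRNAs. Ame_circ_0015723 (LG5, minus strand, 9321483 to 9342234, 20751 nt) had 169, 256 and 162 CPM in released, 38.7, 135 and 108 CPM in caged, 352, 218 and 258 CPM in laying and 983, 1218 and 1368 CPM in virgin ovaries. Every group was lower than virgin ovaries, by -2.43, -3.46 and -1.93 on the log2 scale (adjusted p = 8.67e-05, 2.38e-06 and 0.000454), and the caged libraries lay below all laying ones. Ame_circ_0009074 (LG1, minus strand, 20850019 to 20870596, 20577 nt) was even among the other groups, at 322 ± 94.0, 237 ± 22.3 and 294 ± 49.1 CPM in released, caged and laying ovaries, against 1309 ± 44.8 CPM in virgin ovaries. Ame_circ_0001248 (LG10, minus strand, 4252729 to 4264552, 11823 nt) averaged 150 ± 16.8, 102 ± 18.4, 80.2 ± 35.9 and 412 ± 117 CPM in released, caged, laying and virgin ovaries. Ame_circ_0003726 (LG12, minus strand, 6232062 to 6259986, 27924 nt) was lowest after release, at 104 ± 49.1 CPM in released, 230 ± 62.4 CPM in caged, 215 ± 54.4 CPM in laying and 679 ± 183 CPM in virgin ovaries. Ame_circ_0013241 (LG3, plus strand, 9907051 to 9920493, 13442 nt) was called in laying ovaries and not in the other groups. There it had 60.0, 57.5 and 44.9 CPM, against 263, 120 and 378 CPM in virgin ovaries (log2 -2.08, adjusted p = 0.00323), while it averaged 120 ± 17.9 CPM in released and 170 ± 37.8 CPM in caged ovaries. Falls called in released ovaries at low levels were those of ame_circ_0018168 (19541 nt, log2 -3.06), ame_circ_0004074 (12361 nt, -3.02) and ame_circ_0009181 (17792 nt, -2.98), each with 1 released library at 0. The calls of the first and second were each lost in 3 of 19 other settings, all of them leaving out 1 virgin or released replicate (adjusted p up to 0.0613 and 0.0858). The call of the last was lost in 8 of 19, among them leaving out any released or any virgin replicate (adjusted p up to 0.230).

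The largest fitted fall was that of ame_circ_0012692 (LG3, plus strand, 2757360 to 2783262, 25902 nt). It had 47.0, 18.3 and 0 CPM in released, 19.4, 0 and 17.0 CPM in caged, 29.98, 17.2 and 0 CPM in laying and 199, 241 and 344 CPM in virgin ovaries (log2 -3.43, -4.08 and -3.69, SE 0.83, 0.84 and 0.84). Ame_circ_0009037 (LG1, plus strand, 20625502 to 20641613, 16111 nt) averaged 63.4 ± 10.8, 66.9 ± 55.4, 60.0 ± 26.3 and 324 ± 27.1 CPM in released, caged, laying and virgin ovaries and was called in all 3. On LG1, plus strand, a stretch from 19941352 to 20036563 held 7 long circRNAs, of which 1 was called lower in released, 2 in caged and 4 in laying ovaries. Its most abundant member, ame_circ_0008869 (53233 nt), had 1034, 1046 and 1212 CPM in laying ovaries, against 2368, 2722 and 2384 CPM in virgin ovaries (log2 -1.02, SE 0.30, adjusted p = 0.0173), and was named after its values were seen. The member called in all 3 comparisons, ame_circ_0008879 (63900 nt), was listed at 0 in 1 library of each group but virgin, and its call in laying ovaries was lost in 7 of 19 other settings (adjusted p up to 0.158), among them leaving out any laying replicate.

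The comparison of caged with laying ovaries asks what changes when laying is stopped, and no long circRNA was called (edgeR, smallest adjusted p 0.115). Over all circRNAs tested 0.0933% were called, 0.0622% higher and 0.0311% lower. Of the 351, 30 had an unadjusted p under 0.05, of which 23 were higher and 7 lower in caged ovaries. DESeq2 called 6, with all 4 of those named next among them, and edgeR without the low-count filter called 4. The 4 with the smallest p were ame_circ_0007767 (log2 -2.11, SE 0.51, adjusted p = 0.115), ame_circ_0001506 (1.00, SE 0.25, adjusted p = 0.124), ame_circ_0015723 (-1.53, SE 0.39, adjusted p = 0.124) and ame_circ_0019211 (0.87, SE 0.24, adjusted p = 0.203). For each of these the 3 caged libraries did not overlap the 3 laying ones. All 6 long LG8 circRNAs were higher in caged than in laying ovaries by 0.49 to 1.14 on the log2 scale, with adjusted p between 0.203 and 0.555. The 95% interval of the change lay within 2-fold either way for 48 of the 351 and within 4-fold for 211. For most of the 351 a change of more than 2-fold was therefore not excluded at this depth.

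Released ovaries were compared with caged ones to ask what follows when laying resumes, and with laying ones to set resumed against uninterrupted laying. No long circRNA was called in released vs caged ovaries (edgeR, background 0%, smallest adjusted p 0.557), and 20 had an unadjusted p under 0.05, with 5 higher and 15 lower after release. DESeq2 called 0 and edgeR without the filter called 1. The smallest p belonged to ame_circ_0003173 (LG11, plus strand, 9171811 to 9186489, 14678 nt), which had 348, 226 and 198 CPM in released ovaries, against 48.4, 47.0 and 73.8 CPM in caged ovaries (log2 2.10, SE 0.51, adjusted p = 0.557). Next came ame_circ_0019202 (-1.19), ame_circ_0017491 (LG7, plus strand, 3190629 to 3210895, 20266 nt; -1.68) and ame_circ_0019206 (-0.91), all with that same adjusted p. The 6 LG8 circRNAs had values of -0.38 to -1.19 on the log2 scale, with adjusted p between 0.557 and 0.911. Between released and laying ovaries none was called either (background 0%, smallest adjusted p 0.235), 19 had an unadjusted p under 0.05, and DESeq2 and the fit without the filter each called 1. The 4 with the smallest p were ame_circ_0012150 (LG3, minus strand, 10249488 to 10262361, 12873 nt) at 216, 732 and 234 CPM in released, against 90.0, 97.7 and 44.9 CPM in laying ovaries (log2 2.29, SE 0.53), ame_circ_0010792 (2.03), ame_circ_0006850 (-1.49) and ame_circ_0020031 (1.62). Intervals lay within 2-fold for 51 of the 351 in released vs caged ovaries and for 61 in released vs laying ovaries.

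A separate test asked whether a long circRNA changed apart from the other circRNAs of its stretch (edgeR diffSpliceDGE on the same fit). It could be run for 322 of the 351, and 7 were called in laying vs virgin ovaries, 6 relatively higher and 1 relatively lower, against a background of 3.00% of 2134 circRNAs, 1.64% higher and 1.36% lower. The 4 with the smallest p were ame_circ_0017011 (LG7, plus strand, 10883666 to 10894891, 11225 nt; relative log2 change 2.22, adjusted p = 0.00122), ame_circ_0010731 (1.18, adjusted p = 0.00169), ame_circ_0009071 (1.54, adjusted p = 0.00169) and ame_circ_0019939 (1.03, adjusted p = 0.00754). Ame_circ_0017011 had 187, 167 and 191 CPM in laying ovaries, against 34.7, 0 and 33.6 CPM in virgin ovaries. Ame_circ_0009071, at 263 ± 113 CPM in laying and 141 ± 58.1 CPM in virgin ovaries, was not called on its own level (log2 0.93, adjusted p = 0.150). Without laying replicate 2 the count was 3, without laying replicate 1 it was 4, and with the stricter filter it was 12. The same test against virgin ovaries, added after the laying result was known, called 4 relatively higher and 2 relatively lower in released ovaries, against a background of 1.83%, 1.31% higher and 0.515% lower. In caged ovaries it called 6 relatively higher and 3 relatively lower, against a background of 2.48%, 1.59% higher and 0.890% lower. The released count was 3 without released replicate 1. The caged count was 3 without caged replicate 1 and also without caged replicate 2, 4 without virgin replicate 2 and 14 with the stricter filter. In caged vs laying ovaries 0 of 322 were called (background 0.0937%, 6 with an unadjusted p under 0.05) and in released vs caged ovaries 0 (background 0.0469%, 3 with an unadjusted p under 0.05). DESeq2 was not run on this test.

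Several long circRNAs had nearly the same mean level in all groups. The most even was ame_circ_0003798 (LG12, minus strand, 7272302 to 7288516, 16214 nt), at 158 ± 20.8 CPM in released, 159 ± 29.5 CPM in caged, 162 ± 25.1 CPM in laying and 163 ± 90.4 CPM in virgin ovaries, a coefficient of variation of 0.0155 over the group means. The most abundant of the 5 most even was ame_circ_0003156 (LG11, plus strand, 9129961 to 9143873, 13912 nt), with 1880, 1507 and 1657 CPM in released, 1713, 1626 and 1549 CPM in caged, 2069, 1121 and 2144 CPM in laying and 1435, 2361 and 1696 CPM in virgin ovaries. Libraries of all groups were mixed in level, and its log2 change in laying vs virgin ovaries was 0.13 (SE 0.25). Ame_circ_0019945, ame_circ_0020120 and ame_circ_0008773 were the others. They were chosen for being even, so their evenness is a description.

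One abundant long circRNA was missing from single libraries. Ame_circ_0002325 (LG11, minus strand, 1298804 to 1321228, 22424 nt) was the fifth by mean level, and it had 0, 998 and 831 reads in the released, 1626, 0 and 1234 in the caged, 1240, 1518 and 781 in the laying and 1046, 212 and 528 in the virgin libraries. The zeros fell in released replicate 1 and caged replicate 2. Ame_circ_0002323 (21606 nt), which has the same start, was at 0 in the same libraries and had 25 to 70 reads in the other 10. The third circRNA from that start was listed in 1 library only. The short ame_circ_0002357 (906 nt), which shares the end of ame_circ_0002325, had 79 reads in released replicate 1 and 98 in caged replicate 2. Of 81 long circRNAs with a median of at least 30 reads, 6 had a 0 in some library, and these were the only 2 with a 0 outside virgin ovaries. The others were ame_circ_0007767, ame_circ_0013154, ame_circ_0013160 (31, 4 and 0 reads in the virgin libraries) and ame_circ_0018564, each at 0 in 1 virgin library. All of those were called higher in some comparison with virgin ovaries, and the 0 is part of the virgin level in those rises. The spread from these zeros entered the test, and ame_circ_0002325 was not called in any comparison (log2 1.20, SE 1.10, in laying vs virgin ovaries). Whether the zeros came from the ovaries or from the listing was not tested.

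**Figure D5:**
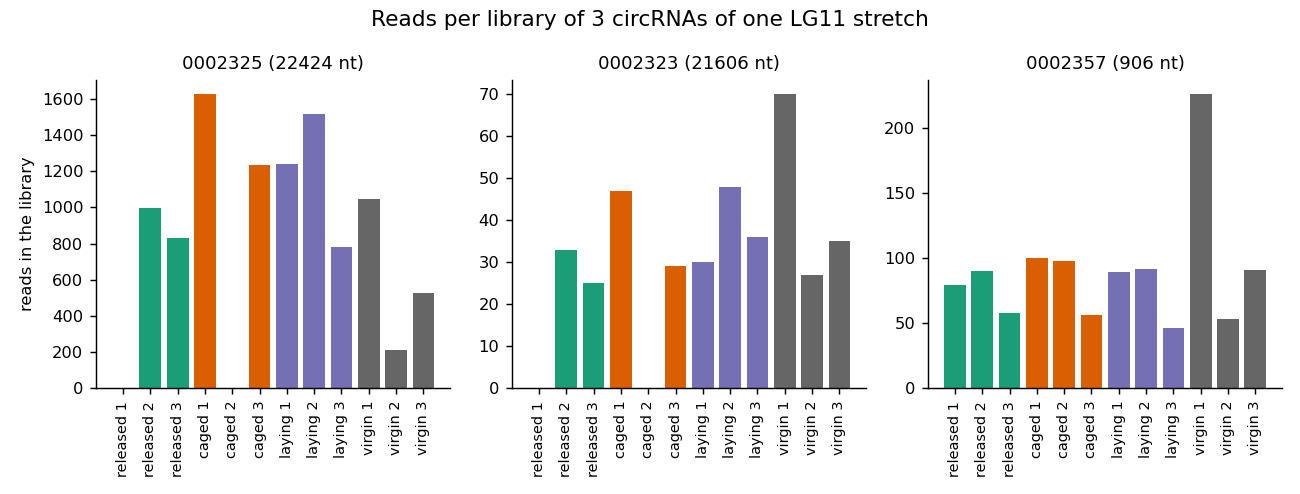
Reads per library (y axis from 0, own scale in each panel) of ame_circ_0002325, ame_circ_0002323 and the short ame_circ_0002357 of one LG11 stretch, with the released, caged, laying and virgin libraries along the x axis. The first and second panels have no reads in released replicate 1 and caged replicate 2, while the short circRNA had 79 and 98 reads there.

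The 3 longest members share an LG16 stretch and were the only ones of the 364 with a circRNA listed on the opposite strand whose ends both lay within 20 nt of theirs. They are ame_circ_0007762 (minus strand, 6919763 to 7012426, 92663 nt), ame_circ_0007767 (plus strand, 6919772 to 7012430, 92658 nt) and ame_circ_0007766 (plus strand, 6919772 to 7012419, 92647 nt). The same plus-strand start also gave a circRNA of 1217 nt, ame_circ_0007763, and the end of ame_circ_0007766 lies 91430 nt beyond that of ame_circ_0007763 at 6920989. The end of ame_circ_0007767 lies as far beyond the end of another short circRNA, at 6921000. Ame_circ_0007767 had 254, 207 and 288 CPM in released, 72.6, 176 and 216 CPM in caged, 922, 736 and 359 CPM in laying and 134, 0 and 92.3 CPM in virgin ovaries. Laying libraries stood above all others, and its log2 fold change of 3.05 in laying vs virgin ovaries (SE 0.55, adjusted p = 0.000444) was the largest called rise of a long circRNA there. Of the short plus-strand circRNAs of this stretch, ame_circ_0007763 (log2 1.53, adjusted p = 0.000806) and ame_circ_0007771 (1215 nt, 3.22, adjusted p = 2.60e-06) were called higher in laying ovaries too. Ame_circ_0007785 (1197 nt) was not called (2.14, adjusted p = 0.250). Ame_circ_0007766 and ame_circ_0007762 were not called in any comparison. How reads were placed between the inner and outer ends of this stretch was not tested. Leaving out all 3, an alternative chosen after seeing the data, gave 73 calls in laying, 85 in caged and 66 in released vs virgin ovaries.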

How the data were processed

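CircRNAs were measured in 12 queen ovary libraries, 3 per group. Per the labels' protocols, ribosomal RNA was removed, RNase R applied and directional paired-end libraries sequenced, with Amel_4.5 as the genome. The submitters' processing notes name Bowtie. How circRNAs were called, and whether starts count from 0 or 1, is not given in these sources. Per the file headers, the authors supplied whole-number counts per circRNA and library. The columns that the authors headed TPM hold deposited CPM values, each count over its library's total of circRNA reads; recomputed values differed by at most 4.989e-06.

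The fit used edgeR 4.0.16 under R 4.3.3 for all circRNAs at once (quasi-likelihood F test, TMM scaling, 1 mean per group, 12 libraries). The filterByExpr settings were 5 reads (min.count) and 15 reads (min.total.count), which kept 3215. Calls used a Benjamini-Hochberg adjusted p under 0.05 over all tested. Stretches for the test of change apart from the rest were tested circRNAs joined by overlap on one strand (GenomicRanges 1.54.1). Intervals are 95%. The fits were checked on simulated counts. Alternatives were DESeq2 1.42.0, other scalings, filters and blocks, and leaving out each library. The members and lists were chosen with earlier results of these data known. Named circRNAs follow a rule: the 10 most abundant, up to 6 called per direction with the largest fold change and no overlap in each comparison with virgin ovaries, the 4 with the smallest p in each other comparison, the 5 longest, the 5 most even, those at the span limit, up to 4 called apart from their stretch, and partners of the 10 most abundant that share an end; any other circRNA named was chosen after its values were seen. Gene lists and sequences were not used.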

Additional observations from a re-analysis of the deposited data

How the results depend on the processing

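Leaving out each library in turn gave 57 to 84 calls in laying vs virgin ovaries, 56 to 88 in caged vs virgin (56 without caged replicate 1) and 44 to 67 in released vs virgin, 3 to 8 circRNAs called apart from their stretch in laying vs virgin, 3 to 10 in caged vs virgin and 3 to 8 in released vs virgin, and 0 calls in every other comparison. The mean share of reads ran from 11.6% to 12.9% in released, 14.1% to 14.8% in caged, 11.5% to 12.1% in laying and 11.03% to 11.3% in virgin ovaries. Without a filter 4 were called in caged vs laying, 1 in released vs caged and 1 in released vs laying; DESeq2 called 6 in caged vs laying and 1 in released vs laying. Called apart with the stricter filter were 14 in caged and 12 in laying vs virgin ovaries, and the laying count was 4 without laying replicate 1 and 3 without laying replicate 2. The cause of these shifts was not tested. By construction, the share was 10.6%, 12.8%, 9.89% and 9.73% in released, caged, laying and virgin ovaries for members listed in all 12 libraries, 15.6%, 12.8% and 12.5% in caged, laying and virgin over widely listed reads alone, and 18.5%, 20.5%, 19.2% and 12.8% in released, caged, laying and virgin with the dense stretches included. With the replicate number as a block, calls were 75, 79 and 58 in laying, caged and released vs virgin ovaries. No pairing of libraries by number was seen: the 18 same-number correlations of deviations ran from -0.160 to 0.108, and 1 was over 0.1. The 36 other pairs ran from -0.103 to 0.121. A batch shared by number could still go unseen with 3 libraries a group. Of 56 calls of named circRNAs, 44 were kept under every alternative and none reversed. Another 12 changes of named circRNAs were not called in the main fit, and 7 of these were called under some alternative. Few calls were made at low levels: no member at up to 50 CPM was called in laying vs virgin ovaries. In caged and in released vs virgin ovaries 1.18% of the members tested at that level were called. The part of depth in this was not tested.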
